A study of Mus musculus with 3 samples.

Results

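The Serpin protease inhibitor genes were examined in open chromatin maps of embryonic mouse liver. The members were the protein-coding genes of the mouse annotation GENCODE M21 whose symbol begins with Serpin, 61 of 21911 protein-coding genes. The maps came from DNase-seq, in which the enzyme DNase I cuts accessible DNA and the cut sites are sequenced. The 3 libraries form 1 group, the liver of embryos aged 13.5 days from a mixed C57BL/6N,129 strain with a homozygous globin mutation, a deletion of HS2 and HS3. Sites so named belong to the locus control region of the β-globin genes. All 3 libraries carry the alteration and no unaltered liver was analysed here, so the only comparison is between genes, and the spread between replicates is the only measure of error. The labels number the libraries as biological replicates 1 to 3 and give all of them the same donor identifier, so how far they are independent animals is not stated.

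Serpins are a protein family named for serine protease inhibition. An inhibitory serpin offers a protease a bait loop, is cut, and traps the enzyme in a covalent complex. Many but not all clade A serpins, and several members of clades C to G, are secreted by hepatocytes into blood plasma. There they restrain proteases of coagulation, fibrinolysis, complement and inflammation or carry hormones. Clade B serpins mostly stay inside cells, including leukocytes and epithelial cells. Liver at this stage of gestation is the main site of red blood cell formation, with hepatoblasts among the blood cells, so a bulk library holds both.

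Of the 61 members, 24 belong to clade A and 26 to clade B, and 11 to clades C to I. All clade A genes but Serpina7, on the X chromosome, lie in 1 cluster of 23 genes on chromosome 12 (mm10, 103614786 to 104414329, 799.5 kb). Clade B has 11 genes on chromosome 1 and 15 on chromosome 13. A promoter was called open in a replicate where the shorter of 2 deposited peak lists had a peak reaching the 500 bp on either side of at least 1 GENCODE start. The value given is the deposited signal of the strongest peak there, and 0 stands for no listed peak. This signal came in whole multiples of a step of 0.0126, 0.00837 and 0.00753 in replicates 1, 2 and 3. The files state no sequencing depth.

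The sequences on which the results turn are shown first, from the reference genome and with the coordinates of mm10. The 5 α-1-antitrypsin genes Serpina1a to Serpina1e had almost the same bases before their starts, which bears on where their reads can be placed. The stretches below, from the RefSeq promoters of GRCm38.p6, are written 5′ to 3′ on the minus strand, the coding strand. Capitals mark a FOXA word (TGTTTGC) and an HNF1 word (GTTAAT). Serpina1b, Serpina1c and Serpina1e had the same 58 bases as Serpina1a, and Serpina1d differed from them at 1 base.
Serpina1a (chr12:103863623-103863680): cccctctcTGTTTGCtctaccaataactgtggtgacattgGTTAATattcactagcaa
Serpina1d (chr12:103773632-103773689): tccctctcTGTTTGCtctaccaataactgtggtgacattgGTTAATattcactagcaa

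The strongest promoter peak of the members was at Serpini1, and it is shown as called in replicate 1, on the plus strand. Capitals mark the 5 footprints, short stretches protected from cutting, that all 3 replicates shared.
Serpini1 (chr3:75557001-75557220): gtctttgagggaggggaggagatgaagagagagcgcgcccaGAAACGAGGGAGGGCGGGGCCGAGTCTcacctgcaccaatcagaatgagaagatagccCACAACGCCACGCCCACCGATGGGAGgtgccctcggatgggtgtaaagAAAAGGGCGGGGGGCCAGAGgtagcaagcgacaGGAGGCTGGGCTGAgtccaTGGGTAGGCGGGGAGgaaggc

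The widest footprint that all 3 replicates shared at Serpinb9, and 1 upstream of Serpinb6a, are shown with 5 bases on both sides, plus strand, footprint in capitals.
Serpinb9, intron (chr13:33004703-33004744): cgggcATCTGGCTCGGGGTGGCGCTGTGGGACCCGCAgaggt
Serpinb6a, in an intron of Ripk1 (chr13:34002799-34002825): cgcgtGGACCGGAGGGCGGGGCtcgtt

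Near the chromosome 12 cluster 4 distal regions were common to all replicates in the shorter list, and the widest footprint that the replicates shared in each is shown. Capitals mark a match to the CTCF word (CC, 3 free bases, AG, 2 free bases and GGC, on either strand). The region near Serpina10 held no full match, though gccctctactga in its footprint differs from the reverse complement of the word only at its last base.
Near Serpina10 (chr12:103643522-103643579): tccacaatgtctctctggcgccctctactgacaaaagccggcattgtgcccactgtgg
Near Serpina12 (chr12:104069833-104069867): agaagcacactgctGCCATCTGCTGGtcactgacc
Near Serpina3n, closer (chr12:104440215-104440269): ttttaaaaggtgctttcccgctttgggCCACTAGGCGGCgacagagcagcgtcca
Near Serpina3n, farther (chr12:104448347-104448384): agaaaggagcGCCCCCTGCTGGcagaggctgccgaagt

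Few Serpin promoters held a peak. Promoters of 4 of the 61 genes were open in all 3 replicates, 6.56%, against 50.9% of all protein-coding genes. The 4 were Serpini1, Serpinb6a, Serpinb9 and Serpinb6b. By replicate 4, 14 and 6 Serpin promoters were open, beside 51.4%, 57.5% and 55.5% of all genes. In at least 1 replicate 14 of the 61 were open (all genes 58.9%). Of the 61, 8 were open in replicate 2 alone, beside 669 of the 21911 protein-coding genes (3.05%). Among genes open in at least 1 replicate these were 8 of 14 Serpin genes and 669 of 12905 genes in all. The longer list had a peak in at least 1 replicate at 21 Serpin promoters (all genes 64.6%). No peak of either list in any replicate lay at 40 Serpin promoters, 65.6%, against 35.4% of all genes. The mean promoter signal per Serpin gene was 0.386, 0.610 and 0.364 in replicates 1, 2 and 3, a mean of 0.453 ± 0.136 (SD, n = 3), against 3.19 ± 0.670 over all genes.

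None of the 23 clade A genes of the chromosome 12 cluster was open in all 3 replicates, beside 50.9% of all genes. Base composition is set beside these counts below. Replicates 1 and 3 held no open promoter there and replicate 2 held 5. Among the 38 other Serpin genes 4 were open in all 3 (10.5%), with 4, 9 and 6 by replicate. With the longer peak list the cluster still had 0 genes open in all 3, and by replicate 0, 8 and 2. The other Serpin genes had 7 (18.4%, all genes 55.7%). The groups are genes of a few gene clusters and not replicates of a condition, so these counts are a description without a test.

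**Figure D1:**
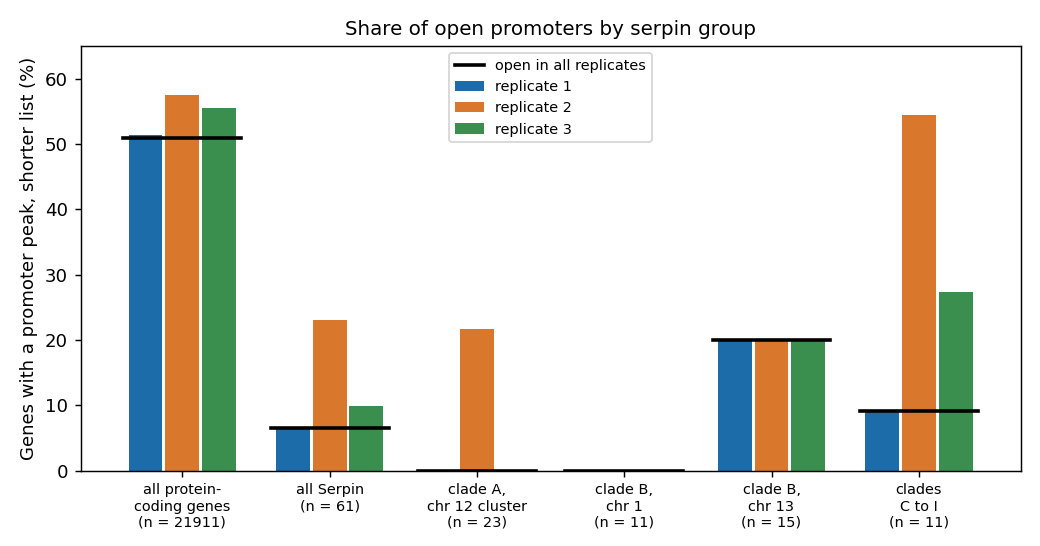
Share of genes with a promoter peak of the shorter list (%) in each serpin group, as bars for replicates 1 to 3, with a black line for the share open in all 3 replicates. The chromosome 12 cluster has a bar in replicate 2 alone (21.7%), clade B on chromosome 1 has none, and all groups lie below all protein-coding genes in the share open in all 3.

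The α-1-antitrypsin genes Serpina1a to Serpina1e encode the main plasma inhibitor of neutrophil elastase. In the shorter list they had peaks in replicate 2 alone, with a signal of 0.477 at Serpina1a, 0.552 at Serpina1b and 0.284 at Serpina1c. These were 57, 66 and 34 steps of that library. Serpina1d and Serpina1e had a peak in the longer list of replicate 2, with 0.201 and 0.234. Replicates 1 and 3 had no peak of either list and no base below the FDR limit of 0.05 at any of the 5 genes. All 5 genes thus had some signal in replicate 2 and none listed in the others. The lowest FDR in replicate 2 was 4.29e-08 at Serpina1a, 3.87e-08 at Serpina1b, 0.000296 at Serpina1c, 0.00645 at Serpina1d and 0.00143 at Serpina1e.

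The peak of replicate 2 at Serpina1a spanned the stretch printed above. A footprint of that replicate covered its bases 28 to 36, counted from the 5′ end, between the FOXA word at bases 9 to 15 and the HNF1 word at bases 41 to 46, and overlapped neither. Copies limit what can be seen at these genes. In the 1 kb around their starts 36% to 75.3% of all 32-base words occurred once in the genome, whereas 37 of the 61 members had at least 90% at every start. How reads from the copies were placed is not given in the sources used here, so the signal of 1 copy is uncertain.

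Besides these, 3 members of the cluster had a promoter peak. Serpina10, an inhibitor of activated coagulation factor X that acts with protein Z, had a signal of 0.510 in replicate 2. In replicate 3 it had 0.445 in the longer list alone. Serpina6, which encodes corticosteroid-binding globulin, had 0.619 in replicate 2, and in replicate 3 0.294 in the longer list. A footprint of replicate 2 near the Serpina6 start, 11 bp wide, held a FOXA word. Serpina11 had a longer-list peak of 0.435 in replicate 2. Replicate 1 had none at these 3 genes. The shorter-list peaks of the cluster were weak: 0.325% to 6.91% of the open promoters of replicate 2 had a lower signal.

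The other 15 cluster genes had no promoter peak of either list and no base below the FDR limit in any replicate. They were Serpina12, which encodes the adipokine vaspin, Serpina5, the protein C inhibitor, the 10 Serpina3 genes related to human antichymotrypsin (Serpina3a, 3b, 3c, 3f, 3g, 3i, 3j, 3k, 3m and 3n), Serpina9, Serpina16 and Serpina1f. The 10 Serpina3 genes thus differed from Serpina1a to Serpina1e, where replicate 2 listed a peak at each of the 5. The lowest share of words occurring once in the genome ran from 68.4% at Serpina3a to 93.4% at Serpina3n. Copies thus limit what can be seen at some Serpina3 genes too. A gene without a listed base may still have cuts, since the deposited file holds only bases that passed the limit. Serpina7, the clade A gene on the X chromosome and the source of thyroxine-binding globulin, had only a longer-list peak of 0.192 in replicate 2.

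**Figure D2:**
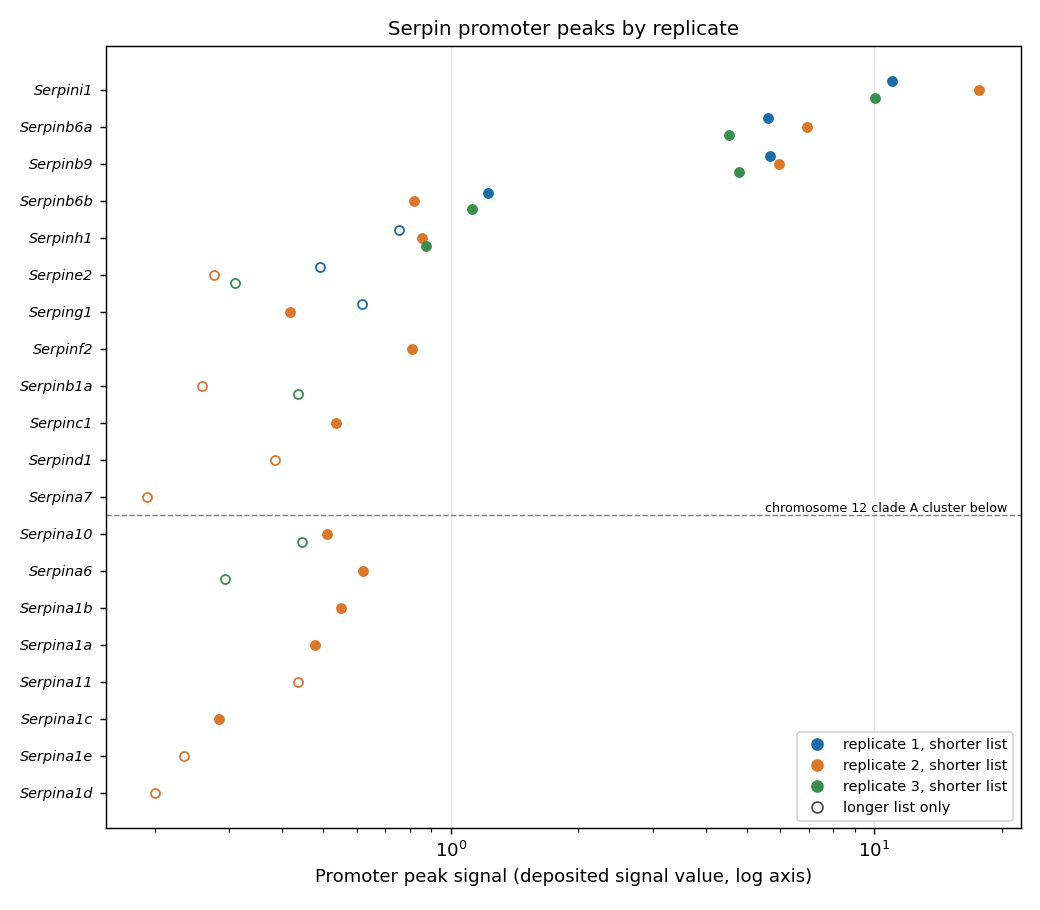
Promoter peak signal (log axis) of the reported Serpin genes with a peak in either list, by replicate. Filled points are peaks of the shorter list and open points peaks of the longer list alone; Serpini1 lies highest, at 10.01 to 17.6, and all cluster genes, below the dashed line, lie under 1 with filled points in replicate 2 alone.

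Replicate 2 also had more peaks elsewhere and a higher summed signal over hepatoblast markers. It had 57314 shorter-list peaks, against 28209 and 41319 in replicates 1 and 3. Of 6 hepatoblast markers, 1, 3 and 0 were open in replicates 1, 2 and 3, with a summed signal of 0.731, 2.99 and 0. The shares of all genes were 51.4%, 57.5% and 55.5%, so no replicate exceeded them. Ttr had 0.731, 0.954 and 0, and 0.490 in the longer list of replicate 3. Alb, Afp and Dlk1 had no shorter-list peak in any replicate. The longer list held Afp with 0.731 and 1.19 in replicates 1 and 2 and Alb with 0.399 in replicate 3. It held Dlk1 with 0.569 and 0.580 in replicates 2 and 3. Apoa1 and Hnf4a had 1.16 and 0.870 in replicate 2 and no peak of either list in the others. All 6 erythroid markers were open in every replicate, with a summed signal of 33.2, 45.9 and 32.2. None of 5 neutrophil markers had a shorter-list peak in any replicate. Among 4 macrophage markers 0, 1 and 0 were open, among 4 megakaryocyte markers 2 in each replicate, among 4 endothelial markers 0, 1 and 1, and among 4 mesenchymal markers 1, 3 and 1. The part of these differences in the Serpin peaks of replicate 2 was not tested. In a bulk library fewer cells of a type and less accessibility per cell cannot be told apart.

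Inside the cluster the numbers of shorter-list peaks were 2, 16 and 5 by replicate, or 0.25, 2 and 0.625 per 100 kb. The genome as a whole had 1.03, 2.1 and 1.52 per 100 kb. The cluster was thus below the genome in replicates 1 and 3 and close to it in replicate 2. Only 2 regions inside the cluster were common to all 3 replicates, and both were distal, over 1 kb from any annotated start. Beyond the low-coordinate end, Ppp4r4, a phosphatase regulatory subunit gene 82.5 kb away, was open in all 3 replicates with 3.49, 3.75 and 3.78. Ddx24, an RNA helicase gene 189 kb away, had 7.27, 13.02 and 6.65. Between them, Ifi27 had 0.678 in replicate 2 alone, and Ifi27l2a and Ifi27l2b had no shorter-list peak. Gsc, a homeobox gene 59 kb beyond the other end, had none either.

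**Figure D3:**
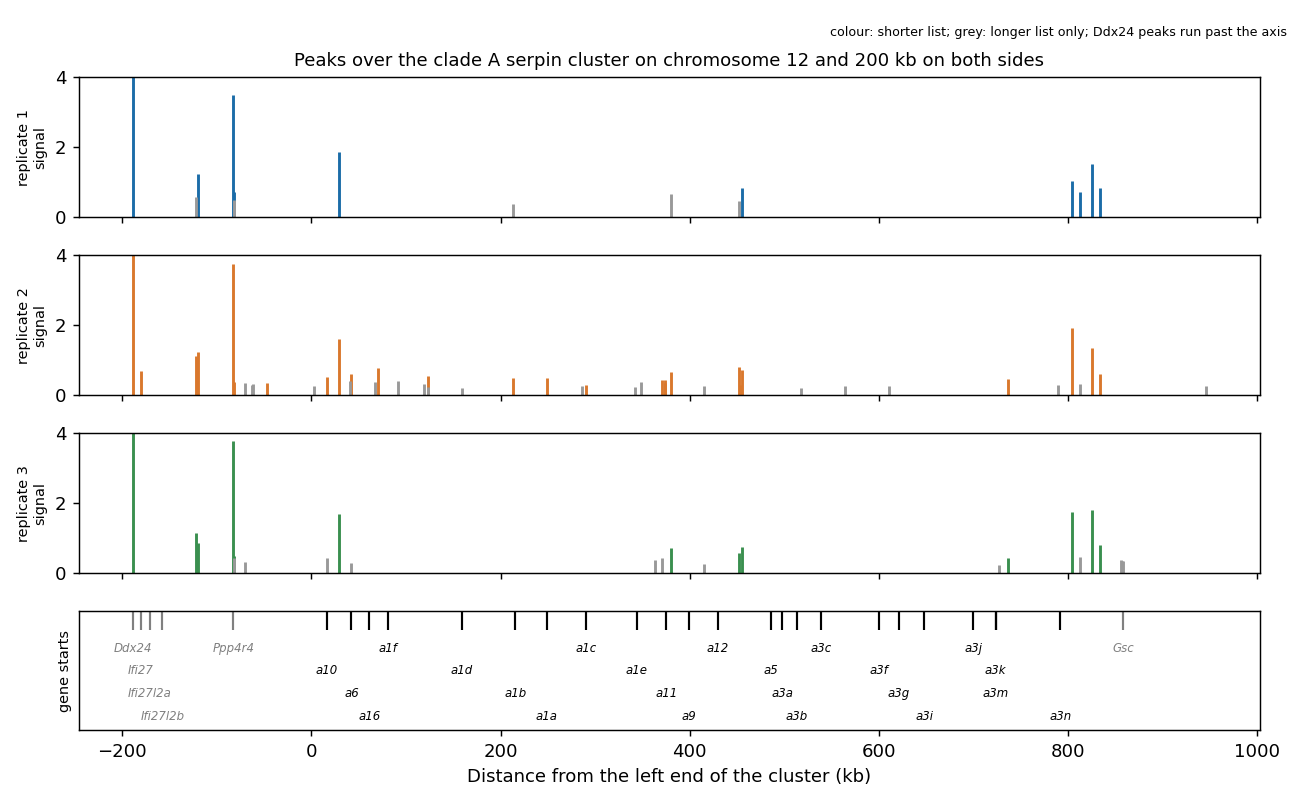
Peaks over the chromosome 12 cluster and 200 kb on both sides, with peak signal on the vertical axis against distance from the cluster's low-coordinate end (kb), 1 panel for each replicate, and gene starts below. Coloured lines are shorter-list peaks and grey lines longer-list peaks; replicate 2 has 16 coloured peaks inside the cluster against 2 and 5, and the Ddx24 peaks run past the axis.

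Among plasma inhibitors encoded elsewhere, 3 were open in replicate 2 and in neither other library. Serpinf2, which encodes α-2-antiplasmin, the inhibitor of plasmin, had 0.812. Serpinc1, which encodes antithrombin, had 0.536, at an internal annotated start (peak on chromosome 1, 160987261 to 160987550). Serping1, which encodes the C1 inhibitor of complement, had 0.418, and replicate 1 had a peak of 0.617 in the longer list alone. Serpind1, which encodes heparin cofactor II, had a longer-list peak of 0.385 in replicate 2. Serpinf1, the source of pigment epithelium-derived factor, had no peak. These signals lay in the range of the cluster's or just above it, and again in replicate 2.

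Serpinh1 was open in replicates 2 and 3. It encodes the collagen chaperone Hsp47 of the endoplasmic reticulum, which does not inhibit proteases, and had a signal of 0, 0.853 and 0.874 in replicates 1, 2 and 3. In replicate 1 the longer list held a peak of 0.756, so the values of the 3 libraries were close where the lists differed. An open promoter in replicates 2 and 3 but not 1 was seen in 3.4% of all genes. Serpine2, which encodes protease nexin-1, an inhibitor of thrombin and plasminogen activators, had longer-list peaks of 0.491, 0.276 and 0.309. They did not overlap one another (chromosome 1, from 79858721, 79858090 and 79858461 in replicates 1, 2 and 3). Serpine3 and Serpini2 had no peak of either list.

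Serpini1 encodes neuroserpin, an inhibitor of tissue plasminogen activator known from neurons. Its promoter signal was 11.01, 17.6 and 10.01 in replicates 1, 2 and 3, a mean of 12.9, and 90.6% to 94.6% of the open promoters of each replicate had a lower value. All 3 libraries thus held a strong peak, highest in replicate 2. The middle of the peak lay at -437, -527 and -457 bp relative to the annotated Serpini1 start at 75557547 on the plus strand, where negative values are upstream. The same peak lay 145, 0 and 105 bp from a start of Pdcd10, the gene on the other side, so the signal cannot be assigned to 1 of the 2 genes. With a window of 250 bp Serpini1 was no longer called open. The 5 footprints shared by all replicates held the GC box word GGGCGG in 2 cases and the KLF word CCACGCCC in 1. None of 3 neuron markers had a promoter peak in any replicate.

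Clade B on chromosome 13 held the other 3 open members. Serpinb6a, a relative of the human cathepsin G inhibitor, had 5.62, 6.94 and 4.54. Its peak covered the start at 34002794 and reached a start of the kinase gene Ripk1, so it too was shared. Serpinb9, a relative of the human granzyme B inhibitor, had 5.67, 5.97 and 4.78. The Serpinb9 peak had the same borders in all 3 replicates (33004601 to 33004820), with its middle 169 bp downstream of the second annotated start at 33004541. With 1 start per gene, the end of the gene record at 33003250, Serpinb9 was not called. Serpinb6b, a mouse copy of the same subfamily as Serpinb6a, had 1.22, 0.820 and 1.12.

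Serpinb6a and Serpinb9 lay near the middle of all open promoters, with 48.7% to 58.1% of these below them, and Serpinb6b lay low, with 8.28% to 13.1%. The lowest replicate of Serpinb9 and Serpinb6a exceeded the highest of Serpinb6b, while Serpinb9 and Serpinb6a overlapped each other. Serpinb1a, an inhibitor of neutrophil elastase, had longer-list peaks of 0.259 and 0.437 in replicates 2 and 3. The other 11 genes of clade B on chromosome 13 had no peak of either list. They include Serpinb9b to Serpinb9g, Serpinb6c to Serpinb6e, Serpinb1b and Serpinb1c. Serpinb9 was thus the only open gene of its subfamily by this call, and Serpinb6a and Serpinb6b were the only ones of theirs. Copies limit this reading for part of the Serpinb9 subfamily. The share of words around the start that occurred once in the genome was 59.7% at Serpinb9e, 44.6% at Serpinb9f and 70% at Serpinb9g. It was at least 94.3% at Serpinb9b, Serpinb9c and Serpinb9d. The lack of a peak at Serpinb9e to Serpinb9g is therefore uncertain.

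The 11 clade B genes on chromosome 1 had no promoter peak of either list, no footprint and no base below the FDR limit in any replicate. They are Serpinb2, which encodes plasminogen activator inhibitor type 2, Serpinb5, known as maspin, the Serpinb3 genes related to human squamous cell carcinoma antigens (3a, 3b, 3c and 3d), and Serpinb7, Serpinb8, Serpinb11, Serpinb12 and Serpinb13. The lowest share of words occurring once in the genome was 66.5% at Serpinb3a, 63.7% at Serpinb3b and 66.7% at Serpinb3c. Copies thus limit the calls there, whereas the others on chromosome 1 had at least 92.9%. Over the 749.3 kb of that cluster the shorter list held 1, 5 and 1 peaks. Over the 1161 kb of the chromosome 13 cluster it held 13, 26 and 17, of which 11 regions were common to all replicates. Of 3 keratinocyte markers, genes of the epithelium in which several of these serpins are known, Krt10 was open in every replicate and Krt5 and Krt14 in none.

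Footprints and local cut density, other readouts of the same libraries, were also listed at few Serpin promoters. A base below the FDR limit lay at 8 Serpin promoters in all 3 replicates (all genes 56.8%) and at 23 in at least 1 (all genes 66%). In the chromosome 12 cluster the numbers by replicate were 0, 8 and 2. A footprint lay at 6 Serpin promoters in all 3 replicates (all genes 53.1%), and in the cluster at 0, 4 and 1 by replicate. Serpinh1 had footprints in every replicate although the shorter list of replicate 1 held no peak there, and they mostly lay at different bases.

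CpG islands mark promoters that tend to be accessible whatever the tissue, so base composition was set beside the calls. The CpG ratio, observed over expected in the 1 kb around the start, had a median of 0.166 over Serpin genes, 0.16 over the cluster and 0.627 over all genes. All 23 cluster genes and 56 of the 61 members lay below 0.4, a limit chosen after the values were seen. Below it 2 of 56 Serpin promoters were open in all 3 replicates (3.57%), Serpinb9 at 0.264 and Serpinb6b at 0.276, beside 4.5% of all genes. By group these were 0 of the 23 cluster genes and 2 of 33 other Serpin genes (6.06%). At a share of 4.5%, few open genes would be seen among 23. At or above the limit 2 of 5 were open, beside 74.8% of all genes. Those 5 were Serpinb6a (0.867), Serpine2 (0.836), Serpini1 (0.518), Serpinh1 (0.473) and Serpinc1 (0.42). Set beside genes of like CpG ratio, the share of open Serpin promoters was thus near that of other genes below the limit.

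**Figure D4:**
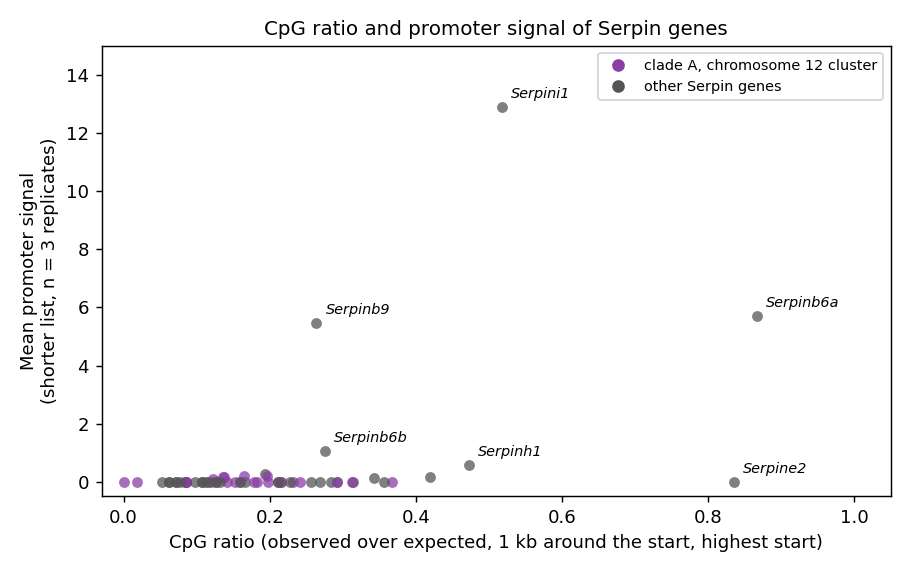
Mean promoter signal over 3 replicates against CpG ratio (highest of a gene's starts) for the reported Serpin genes, with cluster genes in purple. Most genes lie at a ratio below 0.4 with a signal near 0; Serpinb9 has 5.47 at 0.264, and Serpine2 has 0 at 0.836.

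The RefSeq promoter table, 250 bases before to 50 after a start, matched 52 of the 61 members, 18 of them in the cluster. The HNF1 word GTTAAT, searched on both strands, occurred in 6 of these 18 (33.3%), the 5 genes Serpina1a to Serpina1e and Serpina3c, beside 6.16% of all 16522 promoters. A FOXA word (TGTTTAC or TGTTTGC) occurred in 6 of 18 as well, beside 7.41%, and a C/EBP word (TTGCNNAA or TTGNNCAA) in 9 of 18 (50%), beside 13.2%. An HNF4 word (CAAAGTCCA or CAAAGGTCA) occurred in 0 of 18, beside 0.859%. Words of factors not particular to liver were frequent as well, with RUNX (TGTGGT or TGCGGT) in 10 of 18 (55.6%, all promoters 21.6%), NF-Y (CCAAT) in 11 (61.1%, all 38.7%), STAT (TTCNNNGAA) in 5 (27.8%, all 7.89%) and AP-1 (TGANTCA) in 4 (22.2%, all 7.1%). Of the 34 other Serpin promoters matched, the HNF1 word lay in 5 (14.7%), FOXA in 3 (8.82%), C/EBP in 5 (14.7%) and HNF4 in 1 (2.94%). RUNX lay in 7 of them (20.6%), NF-Y in 8 (23.5%), STAT in 3 (8.82%) and AP-1 in 6 (17.6%). The Serpina1 copies are nearly the same sequence and count as little more than 1 promoter. A match describes letters and not binding. Within footprints of the cluster promoters and their 5 bp flanks, a FOXA word was seen at Serpina6 alone. RUNX and NF-Y words were seen there at Serpina1a alone, and each of these footprints was in 1 replicate.

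Distal regions common to all 3 replicates lay within 50 kb of 21 Serpin genes, 34.4%, against 45% of all genes. In the chromosome 12 cluster 7 genes had at least 1 (30.4%). The 21 genes shared 25 distinct regions, of 8810 in the genome, and for 10 of the 25 the nearest protein-coding start was that of a Serpin gene. Of the 25 regions, 4 were near the cluster. The first lay 12.0 kb from Serpina10 (103643441 to 103643640), with a signal of 1.85, 1.61 and 1.69 in replicates 1, 2 and 3. All 3 libraries thus held it at close values, whereas the nearby Serpina10 and Serpina6 had a shorter-list promoter peak in replicate 2 alone and a longer-list peak in replicates 2 and 3. The second, 25.3 kb from Serpina12, had 0.819, 0.711 and 0.738. The last pair, 33.4 and 41.5 kb from Serpina3n and nearer to Gsc, had 1.55 ± 0.229 and 0.754 ± 0.119 (SD, n = 3).

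A CTCF word lay in a footprint that all 3 replicates shared in 11 of the 25 regions (44%), near the share of 36.5% over all 8810. CTCF is the factor known to bind boundaries of chromatin loops. The full word was found in 3 of the 4 regions near the cluster, printed above. On chromosome 13 such words lay in 4 regions, 17.6 and 15.4 kb from Serpinb1a, 5.11 kb from Serpinb1c and 7.24 kb from Serpinb6a in one of its introns. A GATA word (AGATAA, with TGATAA and also AGATAG allowed), of the kind read by the erythroid factor GATA1, lay in a shared footprint of 2 regions (8%), beside 4.29% of all. One was 22.3 kb from Serpinh1 and nearer to Gdpd5, with a signal of 1.45 ± 0.136 (SD, n = 3).

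A region 9.41 kb from Serpinb9 had 1.98, 3.51 and 2.25 in replicates 1, 2 and 3, highest in replicate 2. Of the 4 regions near Serping1 the strongest, 35.5 kb away and nearest to Ube2l6, had 5.49 ± 0.967.

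**Figure D5:**
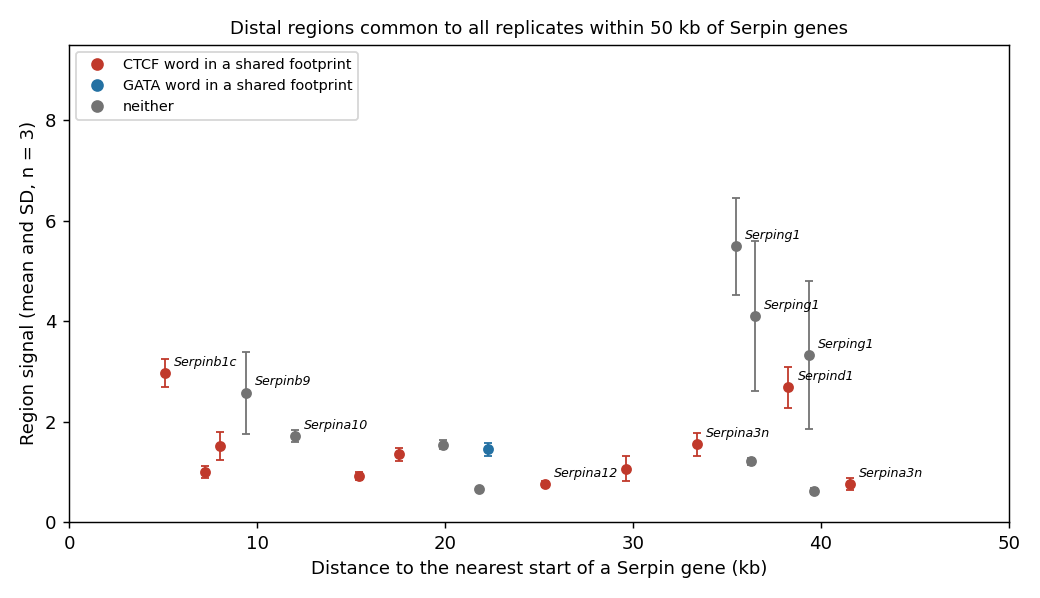
Mean signal and SD (n = 3) of the reported distal regions common to all replicates against their distance (kb) from the nearest start of a Serpin gene, coloured by CTCF and GATA words in shared footprints. Of the regions drawn, those near Serping1 over 30 kb away reach the highest signal (5.49), and the 4 near the chromosome 12 cluster lie below 2.

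The proteases, receptors, clients and regulators of the serpins were counted from 7 lists of 46 genes in all, of which 8 were open in all 3 replicates (all genes 50.9%). Of 8 neutrophil and mast cell proteases none was open in all 3. Prtn3 had 1.14 in the shorter list of replicate 2 alone, and 0.987 in the longer list of replicate 3. Elane had no shorter-list peak. Of 10 coagulation and fibrinolysis proteases 0, 6 and 3 were open by replicate, beside 51.4%, 57.5% and 55.5% of all genes, so the count of replicate 2 was near the share of all genes. The highest were Plau, the urokinase gene, with 0, 0.803 and 1.27, and F10 with 0, 1.12 and 0.814. Of 4 complement proteases 0, 2 and 0 were open. C1ra, a target of the C1 inhibitor, had 0.678 in replicate 2, and in the longer list 0.668, 0.678 and 0.588 in replicates 1, 2 and 3. C1s1, another target, had 0.569 in replicate 2 and no peak of either list in the others. Replicate 1 had no shorter-list peak at these 3 lists, but its longer list held peaks at F10 (0.794), Plat (0.542), Plau (0.668) and C1ra, close to the values of the other replicates for F10, Plat and C1ra.

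The lysosomal cysteine proteases and caspases had 3 of 6 genes open in all 3 replicates, near the 50.9% of all genes. Among them Ctsl had 5.67 ± 0.531 and Ctsb 5.18 ± 0.374 (SD, n = 3). Of 4 receptors and cofactors 1 was open in all 3 (all genes 50.9%), Lrp1, a receptor that clears serpin complexes, with 1.29 ± 0.270. Vtn, the source of vitronectin, had 0, 0.720 and 0.550. Of 6 collagens that the Serpinh1 product folds, 2 were open in all 3 (all genes 50.9%), Col1a1 with 2.41 ± 0.386 and Col5a1 with 0.910 ± 0.00269. In the shorter list Col1a2 and Col3a1 had no peak, and Col4a1 and Col4a2 had 0.429 in replicate 3 alone. Of 8 liver regulators known at Serpina1, 2, 6 and 3 were open by replicate, beside 51.4%, 57.5% and 55.5% of all genes. Cebpa and Cebpb were open in all 3, with 2.98 ± 0.386 and 2.47 ± 0.403, whereas Hnf4a, Foxa2 and Onecut1 were open in replicate 2 alone. Onecut1 also had 0.663 in the longer list of replicate 3.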

How the data were processed

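Embryonic liver was assayed by DNase-seq in 3 replicates. Per the notes deposited beside the files, peaks, footprints and FDR values were made per sample from alignments to mm10. No source used here names the aligner or the callers of peaks and footprints. The peak signal is the signal value of the authors' narrowPeak lists, of which each replicate has a shorter and a longer one (28209 and 43508 peaks, 57314 and 84336, 41319 and 63109). The deposited FDR values, a p-value type of measure, were all below 0.05, and the deposited footprints all carry a threshold of 0.01. Depth is unknown, so no interval was given.

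Starts came from GENCODE M21, after mitochondrial genes and repeated symbols were left out, and sequence from GRCm38. Python 3.11.15 and numpy 2.4.6 were used, with peak functions tested on simulated data. Peaks sharing at least 1 bp were joined into regions. The 18 motifs were searched on both strands in footprints with 5 bp on both sides. Sequence of UTRs is not printed. With 1 group no test between groups was possible, and no test over gene lists was made. The members, lists and limits were chosen with earlier results of these data known. Counts cover all members, but 1 member's values and 1 distal region are not reported here. Named genes were all cluster genes, the other members with a shorter-list promoter peak, the 2 strongest of each target list, and neighbours within 200 kb; other names were chosen after their values were seen. Alternatives covered the peak list, threshold, window, starts, distances, joining, scaling and each replicate.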

Additional observations from a re-analysis of the deposited data

How the results depend on the processing

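None of the alternatives run for the chromosome 12 cluster gave a promoter open in all replicates. With the longer list the Serpin promoters open in all 3 rose from 4 to 7, those outside the cluster from 4 to 7, and the target genes from 8 to 13. The share of all genes rose from 50.9% to 55.7%. The window of 250 bp gave 3 open Serpin promoters, without Serpini1 (all genes 49.8%). With 1 start per gene 3 were open, without Serpinb9 (all genes 46%). With the upper 50% of peaks by signal, 3 Serpin promoters were open, without Serpinb6b, and 5 target genes, beside 41.8% of all genes. In that setting 4 Serpin genes had a common distal region in place of 21. Within 20 kb 10 genes had one. Leaving out 1 replicate gave 4 to 6 Serpin promoters and 8 to 13 target genes (13 without replicate 1). The share of all genes was 54.3%, 51.1% and 51% without replicates 1, 2 and 3. It also gave 21 to 25 Serpin genes with a distal region, 6 to 7 with a footprint and 8 to 11 with a base below the FDR limit. The mean signal was then 0.375 to 0.498. For these other counts the share of all genes is given in the main setting alone. The causes were not tested, apart from fewer replicates or peaks being required. The alternatives for target genes, footprints and FDR were chosen after seeing the data. No paired analysis was possible because the samples form 1 group. Groups of 3 are too small for a check of single samples, and without a stated depth a missing peak does not show closed chromatin.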
